A study of Mus musculus with 46 samples.

Results

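Hnf4a, Onecut1, Onecut2, Prox1, Cebpa, Nr5a2, Gata4 and Gata6 encode transcription factors that set up and maintain the hepatocyte state. They were taken as 8 listed genes, by name and with no threshold on their values, and each was found in all 4 tables of the series, which list 55774 to 56775 genes. Their levels were followed through every comparison that could be made within a table. Of the 8 genes, 7 passed the filter on low values in both tables of cultured cells and in livers on the diet labelled NCD, and 6 in livers on the diet labelled HFD.

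The series concerns Falcor, a long noncoding RNA listed as 9030622O22Rik, and its relation to nuclear speckles and to the zinc finger protein ZC3H11A. RNA was sequenced from 46 libraries. AML12, a mouse hepatocyte line made from the liver of a mouse that carried a human TGFα transgene, served for 2 experiments. The first used lines with inducible hairpins, either shCtrl as control or one named shLinc, which is read here as the Falcor hairpin because the characteristics tag of its samples carries that name. They were taken without doxycycline, with doxycycline (Add Dox) and in a state labelled Restored, whose titles read DoxMinus (3 libraries in each of 6 groups). The second experiment used conventional hairpins, namely shCtrl, shFalcor and shZC3H11A (3 libraries each). The remaining tables came from mouse liver, with 4 controls (Ctrl) and 4 Falcor knockouts (Falcor KO) on NCD, and 5 controls and 6 knockouts on HFD. The labels give neither the allele or driver of the knockout nor the age or sex of the mice, and they do not say how many clones or hairpin sequences stand behind each line, or how long doxycycline was given or withdrawn.

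Hepatocytes are specified and kept by a small set of factors that bind each other's genes as well as the genes of liver function. HNF4A is a nuclear receptor that drives apolipoprotein, clotting factor and metabolic genes, and CEBPA is a leucine zipper factor of the quiescent, metabolically active hepatocyte. ONECUT and GATA factors act early, when endoderm becomes liver, and PROX1 is needed as hepatoblasts move out of the liver bud and later acts as a corepressor of nuclear receptors, while NR5A2 regulates bile acid and cholesterol genes.

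Hnf4a (ENSMUSG00000017950.16) spans 163506808 to 163572910 on chromosome 2 (mm10, plus strand), and it is transcribed from an upstream and a downstream promoter. The upstream promoter window, 250 bases before to 50 after the start, is shown because Hnf4a differed in every AML12 hairpin comparison with its control, and because motifs of other factors among the 8 fall in it. The window (chr2:163506607-163506906, plus strand, RefSeq, GRCm38.p6) holds a match to the ONECUT core ATTGAT on the minus strand, read here as ATCAAT, 1 base before a GATA match, AGATAA. Capitals mark these matches, which are descriptions of the letters and not evidence of binding.
Hnf4a upstream promoter: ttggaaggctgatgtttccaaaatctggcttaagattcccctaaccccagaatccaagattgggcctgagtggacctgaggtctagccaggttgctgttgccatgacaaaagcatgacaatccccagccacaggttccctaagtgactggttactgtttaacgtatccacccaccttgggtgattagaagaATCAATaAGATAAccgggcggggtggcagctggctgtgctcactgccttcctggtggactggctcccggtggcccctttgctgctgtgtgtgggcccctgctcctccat
Searched on both strands, ATTGAT was found in 7.54% of 32851 promoter windows of this length and AGATAA in 11.2%. The motif letters of HNF4 (CAAAGTCCA, 0.475% of windows), NR5A2 (CAAGGTCA, 1.56%), CEBP (TTGCGCAA, 0.183%) and an HNF1 half-site (GTTAAT, 7.1%) were searched too. None of these was found in the window shown, and the matches there do not overlap one another. The downstream Hnf4a window (chr2:163546905-163547204) held 2 matches to the HNF1 half-site and no ONECUT or GATA match. The window shown was thus picked for its matches, and the downstream one lacks them. The expression tables give 1 value per gene, so the promoters cannot be told apart in them. Windows were found in the RefSeq table for 5 of the 8 genes.

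Both paralogue pairs can be separated by sequence. Onecut1 and Onecut2 share 0 of their 31-base transcript words, and so do Gata4 and Gata6. Onecut1 (ENSMUSG00000043013.10, chromosome 9, 74861921 to 74891781, plus strand) is the gene with an uncertain assignment, because 53.0% of its words recur in other genes, nearly all in the overlapping same-strand noncoding model Gm20649. Gm20649 was listed at 0 in every library apart from a highest value of 1 on HFD. Onecut2 has the longest annotated transcript of the 8 genes (16234 nt), followed by Prox1 (7913 nt), and Cebpa has the shortest (2626 nt). The antisense genes Hnf4aos, Prox1os and Gm45091, which overlap Hnf4a, Prox1 and Cebpa, reached 17, 18 and 7 at most. The libraries are strand-specific by their protocol, but the sources do not state whether strand was used in counting.

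The conventional hairpin table holds counts, 4474760 to 8837581 per library. The other tables hold whole numbers that behave like a length-scaled unit such as TPM, with unknown sequencing depth. They are called values below, and levels of different genes are compared in these tables alone. Whole numbers listed library by library are deposited values before scaling, while fold changes are of scaled values. Untreated control replicate 1 stood below its 2 partners for several of the 8 genes. HFD knockout replicate 6 stood apart from the other HFD livers, with 9369 genes above 0, against 11762 to 13848 in the others. It held 78.2% of its total in 3 identical rows, which also took 22.4 to 56.8% in the other HFD livers and 3.43 to 12.9% on NCD. Falcor was listed at 0 in all 10 knockout livers. With doxycycline Falcor averaged 2.45 ± 0.594 under its own inducible hairpin and 4.90 ± 0.604 under shCtrl (mean ± SD of scaled values, 3 libraries each), whereas untreated cells showed the opposite order, 9.39 ± 1.57 and 5.15 ± 0.820. In the conventional table Falcor was at 3.43 ± 1.29 CPM in controls, 0.849 ± 0.302 under shFalcor and 0.759 ± 0.284 under shZC3H11A (n = 3 each). Zc3h11a was at 63.4 ± 4.15, 37.8 ± 5.01 and 8.07 ± 4.94 CPM in the same groups. Falcor was thus low under both hairpins. The sources do not say whether replicates were separate cultures or animals, so every p-value measures only how far these libraries scatter, and that scatter may be technical.

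AML12 cells kept part of the hepatocyte programme. In the 3 untreated inducible control libraries, 14 of 20 textbook HNF4A target genes were listed at 0, among them Cyp7a1, F9 and Pck1, while Ttr and Hpx averaged 420 and 183. These values are rounded, so a 0 need not mean absence. By counts, 10 of the 20 were at 0 in the conventional controls, Cyp7a1 and F9 among them but not Pck1. The 11 markers of bile duct and progenitor cells summed to 2404 to 2525 there, mainly through Krt19 at 1100 and Cd24a at 647, while 2 of the 11, Epcam and Prom1, were at 0 in every library. In liver on either diet, no gene of the 20 was at 0 throughout a group. Macrophage markers summed to at most 2.78 in any AML12 library of the inducible table and stellate markers to at most 1.01. In these rounded values the defining genes of both cell types were thus at or near 0. By counts, stellate markers summed to 12.1 to 20.6 CPM in conventional controls, with 3 of 9 at 0. Sinusoidal endothelial markers summed to 15.1 to 16.4 in untreated inducible controls, with 8 of 10 at 0.

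Knockdown of Falcor with the conventional hairpin asked how the factor genes respond when Falcor is low. Hnf4a, Onecut1, Onecut2, Prox1 and Gata6 fell, Gata4 rose, and Cebpa did not pass. Onecut2 fell most, from 310 ± 54.2 to 60.3 ± 7.73 CPM, and Hnf4a from 126 ± 2.68 to 60.7 ± 2.34 CPM (mean ± SD, n = 3 each). Thus 6 of the 7 tested factor genes were called by edgeR, 5 lower and 1 higher, against 51.5% of all 11871 genes tested, of which 26% were lower and 25.5% higher. Their median log2 fold change was −0.93, against −0.00489 over all tested genes. Without rescaling between libraries the median of all genes moved to 0.14, and the share of called genes that were higher from 49.5 to 62.5%.

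Hnf4a counts were 1106, 690 and 775 in the control libraries and 366, 281 and 565 under shFalcor. Scaled by library size these were 128, 123 and 127 CPM against 60.6, 58.3 and 63.0 CPM. The groups were tight and far from overlapping, with a log2 fold change of −1.07 ± 0.08 (SE, edgeR adjusted p = 4.27e-09). The share of all genes without overlap was not counted, here or in any other comparison of cultured cells. Nr5a2, the other nuclear receptor gene, was barely detected, with 2, 1 and 7 counts in controls and 4, 5 and 14 under shFalcor, and it did not enter the test.

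Onecut2 counts were 2977, 1898 and 1513 in controls and 312, 302 and 597 under shFalcor. In CPM the lowest control, 248, stood above the highest shFalcor library, 66.6, and the log2 fold change was −2.38 ± 0.18 (edgeR adjusted p = 1.30e-05). Onecut1, the founding ONECUT factor of liver, had far fewer counts, 66, 41 and 31 against 20, 14 and 28. It fell from 6.67 ± 1.39 to 3.11 ± 0.204 CPM (log2 fold change −1.11 ± 0.33, edgeR adjusted p = 0.00841). Its groups did not overlap either, with the share of all genes not counted. Prox1 counts of 512, 369 and 326 in controls compared with 195, 133 and 305 under shFalcor, or 59.4 ± 6.18 against 31.3 ± 3.32 CPM (−0.93 ± 0.11, edgeR adjusted p = 1.46e-06).

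The GATA genes moved apart. Gata4 rose from 21.4, 26.4 and 24.4 CPM in controls to 33.5, 33.2 and 41.1 CPM under shFalcor (log2 fold change 0.58 ± 0.13, edgeR adjusted p = 0.00106). Gata6 fell from 24.5, 24.0 and 22.1 to 15.6, 16.2 and 13.5 CPM (−0.67 ± 0.16, edgeR adjusted p = 0.00237). Neither gene's groups overlapped, but the share of all genes without overlap was not counted. Cebpa was low, with 39, 52 and 35 counts against 54, 37 and 85, its groups overlapped in CPM, and it did not pass (0.43 ± 0.30, edgeR adjusted p = 0.243).

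**Figure D1:**
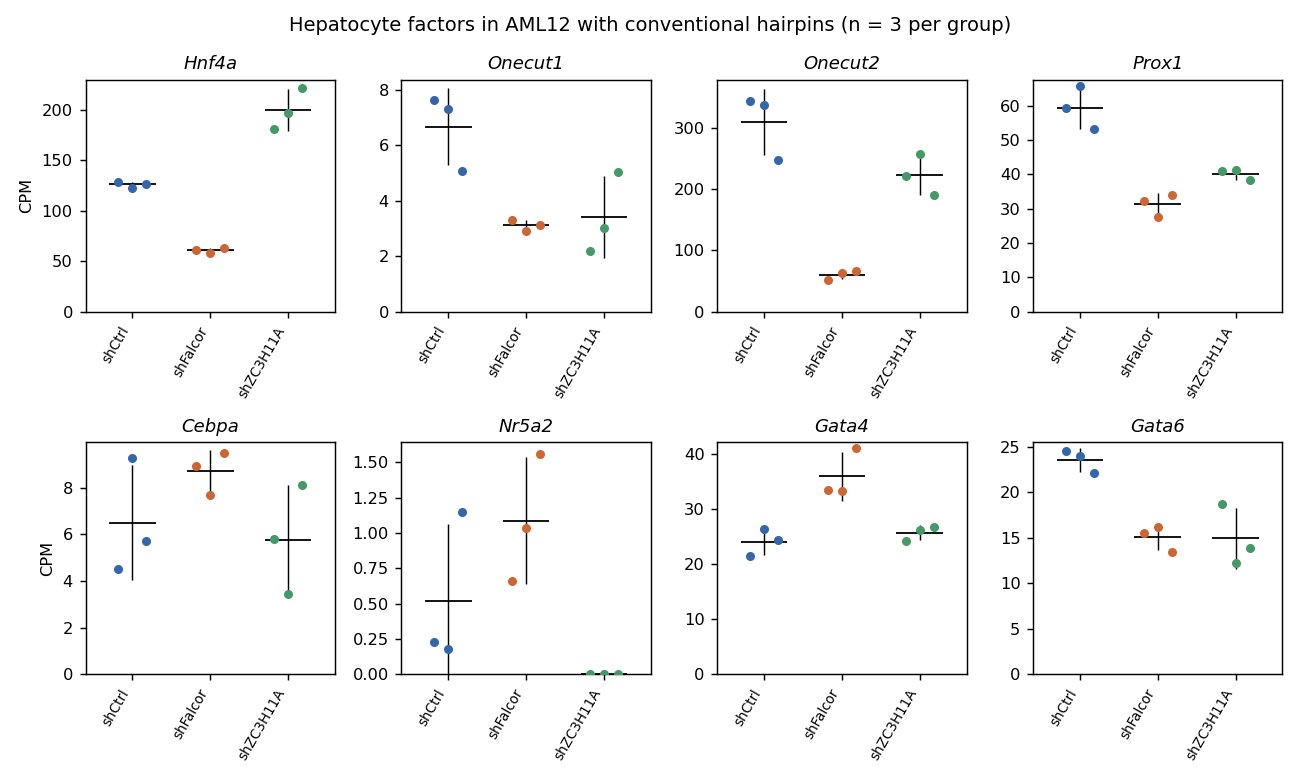
CPM of the 8 factor genes in each library with a conventional hairpin; points are libraries, horizontal bars group means and vertical bars 1 SD (n = 3 per group). Hnf4a is lowest under shFalcor (58.3 to 63.0 CPM) and highest under shZC3H11A (181 to 221 CPM), whereas Onecut1, Prox1 and Gata6 are lower under both hairpins than in controls.

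Under the ZC3H11A hairpin the picture shared some directions and not others. Hnf4a rose, to 200 ± 20.5 CPM, while Onecut1, Prox1 and Gata6 fell. The 4 genes called by edgeR compare with 48.5% of all genes, 24.2% higher and 24.3% lower, and the median of the 7 factor genes was −0.45. Both hairpin comparisons use the same 3 control libraries, so they are not independent of each other.

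Hnf4a counts of 1314, 918 and 1228 under shZC3H11A corresponded to 181, 197 and 221 CPM. Every one of these libraries stood above every control, with a log2 fold change of 0.68 ± 0.07 (edgeR adjusted p = 6.01e-07). Onecut1 was at 2.20, 3.00 and 5.05 CPM against 7.64, 7.30 and 5.07 CPM in controls (−0.97 ± 0.33, edgeR adjusted p = 0.0217). The Onecut1 call rests on few counts and on single libraries. Its adjusted p was 0.0926 without control replicate 1, 0.0624 without control replicate 2, 0.119 without shZC3H11A replicate 1 and 0.0594 without shZC3H11A replicate 2, and with DESeq2 it was 0.0590. Prox1 fell to 40.2 ± 1.72 CPM (−0.55 ± 0.11, edgeR adjusted p = 4.36e-04) and Gata6 to 14.9 ± 3.37 CPM (−0.62 ± 0.17, edgeR adjusted p = 0.00461).

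Onecut2, at 223, 258 and 191 CPM against 344, 338 and 248 CPM, overlapped with controls and missed the threshold (−0.45 ± 0.17, edgeR adjusted p = 0.0554). It passed with DESeq2 (adjusted p = 0.00228), with no filter in edgeR (2.12e-07), with the replicate number as a block (0.0294), without control replicate 3 (0.00365) and without shZC3H11A replicate 2 (0.0239). With no filter the Onecut2 value was −0.47 ± 0.08, close to that of the main fit but with a smaller SE. Gata4 (0.12 ± 0.13) and Cebpa (−0.12 ± 0.31) overlapped with controls and did not pass. Nr5a2 had 0 counts in all 3 shZC3H11A libraries, against 10 over the control libraries and 23 over the shFalcor libraries. With no filter in edgeR, Nr5a2 was lower under shZC3H11A than in controls (−4.75 ± 1.65, adjusted p = 0.0229). In that fit it was higher under shFalcor than under shZC3H11A (5.85 ± 1.53, adjusted p = 8.19e-04). Between shFalcor and controls it did not pass (1.10 ± 0.89, adjusted p = 0.47). These values rest on the same few counts. Set against a floor of 3 counts over the shZC3H11A group, pooled Nr5a2 CPM was 2.86-fold the floor in controls and 6.76-fold under shFalcor. The control ratio rests on 1 library, since without control replicate 3 only 3 counts were left, which is at the floor. Without shZC3H11A replicate 1 the ratios were 1.67-fold and 3.95-fold. Leaving out libraries here was chosen after seeing the data. The floor covers counting error of the shZC3H11A group alone. Counting error of the control and shFalcor groups was left out, so these ratios are not lower bounds.

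Compared directly, the Falcor hairpin gave less Hnf4a and less Onecut2 than the ZC3H11A hairpin. The log2 fold change of shFalcor over shZC3H11A was −1.75 ± 0.08 for Hnf4a (edgeR adjusted p = 4.51e-12) and −1.92 ± 0.18 for Onecut2 (edgeR adjusted p = 3.80e-05). Prox1 was lower (−0.39 ± 0.11, edgeR adjusted p = 0.00746), a call that was lost when libraries were not rescaled (−0.23, 0.102). Gata4 was higher (0.46 ± 0.13, edgeR adjusted p = 0.00538). Onecut1 (−0.15 ± 0.35), Gata6 (−0.05 ± 0.17) and Cebpa (0.55 ± 0.31) did not pass, and the values of Onecut1 and Gata6 turned to 0.0137 and 0.11 with no rescaling. Cebpa passed without shZC3H11A replicate 3 (0.85, adjusted p = 0.0438). The 4 called genes compare with 56.9% of all genes, 28.4% higher and 28.6% lower, and no rescaling moved the share of called genes that were higher from 49.8 to 61.3%.

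Genes downstream of these factors were followed as lists. Under shFalcor 5 of 6 tested textbook targets of HNF4A fell and none rose (median −1.47), where 26% of all genes were called lower and 25.5% higher. Ttr, which encodes the thyroid hormone carrier transthyretin, fell from 131 to 2.99 CPM (log2 fold change −5.29 ± 0.32), Hpx, which encodes hemopexin, from 69.3 to 15.2 CPM (−2.19 ± 0.14), and Apob, the structural apolipoprotein of very low density lipoprotein, from 89.4 to 54.8 CPM (−0.71 ± 0.11). Under shZC3H11A the list was split, with 2 genes higher and 2 lower of 6, where 24.2% of all genes were called higher and 24.3% lower. Apob rose by 1.48 ± 0.10 on the log2 scale and Apoa1, which encodes the main apolipoprotein of high density lipoprotein, by 2.87 ± 0.35, while Hpx fell by 1.34 and Ttr by 1.48. Of the CEBPA targets tested, 3 of 4 fell under shFalcor, with Alb, which encodes albumin, at −2.35 ± 0.14 and Serpina1a, a protease inhibitor gene, at −4.41 ± 0.45. Fasn, which encodes fatty acid synthase, rose by 0.59. Under shZC3H11A Serpina1a (2.23 ± 0.26) and Fasn (1.61 ± 0.06) rose and Alb fell by 1.30.

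Among 26 tested genes for other liver transcription factors, 14 fell and 2 rose under shFalcor (median −0.30), and 13 fell and none rose under shZC3H11A (median −0.47). Over all genes 51.5% were called under shFalcor (26% lower, 25.5% higher) and 48.5% under shZC3H11A (24.3% lower, 24.2% higher). The total of 13 of 26 called under shZC3H11A is thus close to the share of all genes, but all 13 were lower. Foxa2, the forkhead gene next to Falcor, fell from 95.7 to 34.5 CPM under shFalcor (−1.48 ± 0.10), and Ppara, the fatty acid receptor gene, fell by 1.10. Foxa2 did not pass under shZC3H11A (0.11, edgeR adjusted p = 0.386), where Zbtb20 (−1.21), Nfib (−1.54) and Hhex (−1.14) fell. Of 7 proliferation markers, 1 fell under shFalcor (Top2a, −1.38) and 5 rose under shZC3H11A (Mki67 at 1.86 among them, median 1.15). The summed proliferation markers were at 88.5 to 106 CPM in controls, 74.5 to 78.5 under shFalcor and 121 to 187 under shZC3H11A. Summed sinusoidal endothelial markers, in which Maf is the main gene, were at 89.7 to 97.0, 33.4 to 41.6 and 39.7 to 55.5 CPM. The 11 bile duct and progenitor markers summed to 1856 to 2000 CPM in controls, 1513 to 1652 under shFalcor and 1428 to 1518 under shZC3H11A, with 4 of 9 tested markers lower and 1 higher under shFalcor and 7 lower and 1 higher under shZC3H11A. Des, the 1 stellate marker tested, rose under both hairpins (0.79 and 0.54). The part of these differences in the factor genes was not tested.

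In the inducible lines the order of levels was read on the premise that the values are length-scaled, which no source states. In untreated control cells Hnf4a was highest at 54.6 ± 6.47 (scaled values, mean ± SD, n = 3), followed by Cebpa at 22.1 ± 1.73, Gata4 at 15.8 ± 0.434 and Gata6 at 12.1 ± 0.0397. These 4 did not overlap one another. Onecut1, Onecut2 and Prox1 followed at 5.12 ± 1.58, 4.45 ± 1.00 and 4.08 ± 1.64 and could not be ranked, and Nr5a2 was listed at 0 in 16 of 18 libraries and at 1 in the other 2. At such low values rounding makes replicates share a number, so the printed spread of the low genes is too small.

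With doxycycline the Falcor hairpin line had less Onecut2 and Hnf4a than the control line, and the other factor genes did not pass. Onecut2 was 13, 14 and 14 in the control line and 6 in each Falcor hairpin library. This is the clearest separation of the group under doxycycline, at a log2 fold change of −1.07 ± 0.10 (on log2 of the scaled value plus 1, as for all comparisons in this table; limma adjusted p = 2.07e-07). Hnf4a was 84, 84 and 82 against 64, 64 and 67, also without overlap (−0.35 ± 0.06, limma adjusted p = 1.60e-04). How many of all genes had no overlap was not counted. These 2 of 7 tested genes, both lower, compare with 52.4% of all 9877 genes, of which 27% were lower and 25.4% higher. Cebpa was 12, 10 and 11 against 10, 10 and 10 (−0.12 ± 0.06, limma adjusted p = 0.116) and Gata6 17, 17 and 15 against 16, 14 and 15 (−0.11 ± 0.06, adjusted p = 0.155). Each of these passed without 1 control library, Cebpa at adjusted p = 0.0248 without replicate 2 and Gata6 at 0.0453 without replicate 3. Gata4 (−0.07 ± 0.06), Onecut1 (−0.08 ± 0.14) and Prox1 (0.14 ± 0.19) overlapped and did not pass.

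Without doxycycline the lines already differed, and in the other direction. All 7 tested genes were called higher in the Falcor hairpin line, against 65.3% of all genes called and 30.2% called higher. No groups of the 7 overlapped, but the share of all genes without overlap was not counted. The median of the 7 was 0.57 against −0.0132 over all genes. Hnf4a was 43, 58 and 58 in the control line and 77, 79 and 77 in the Falcor hairpin line (0.37 ± 0.06, limma adjusted p = 5.88e-05). Onecut1 was 3, 6 and 6 against 12, 11 and 12 (0.96 ± 0.14) and Onecut2 3, 5 and 5 against 11, 10 and 10 (0.95 ± 0.10). The ONECUT genes thus showed the widest separation, roughly a doubling of the control value. Prox1 was 2, 5 and 5 against 8, 8 and 7 (0.70 ± 0.19), Cebpa 22, 21 and 21 against 33, 36 and 36 (0.50 ± 0.06), and Gata6 11, 12 and 12 against 20, 21 and 20 (0.57 ± 0.06). Scaling brought the lines closer, with means of 22.1 and 31.7 for Cebpa, 12.1 and 18.4 for Gata6 and 54.6 and 70.4 for Hnf4a. Gata4 differed least, at 14, 16 and 16 against 20, 20 and 21 (0.21 ± 0.06, limma adjusted p = 0.00950). All 7 calls held with each library left out in turn. Without untreated control replicate 1, the low library, the values were 0.26 for Hnf4a, 0.72 for Onecut1, 0.78 for Onecut2, 0.40 for Prox1, 0.56 for Cebpa, 0.57 for Gata6 and 0.18 for Gata4, so that the difference of Prox1 shrank by over 1.5 times. With no rescaling the median of all genes moved from −0.0132 to 0.16 and the share of called genes that were higher from 46.2 to 67.6%.

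In the restored state 5 of the 7 were higher in the Falcor hairpin line, against 57.9% of all genes called and 25.7% called higher. Prox1 was 3, 4 and 3 against 9, 8 and 8 (0.98 ± 0.19, limma adjusted p = 3.19e-04), Onecut1 4, 4 and 4 against 9, 9 and 8 (0.81 ± 0.14, limma adjusted p = 1.16e-04) and Onecut2 7, 7 and 7 against 12, 11 and 12 (0.52 ± 0.10, limma adjusted p = 3.30e-04). These separations were wide relative to the spread. Those of Gata6 (0.21 ± 0.06, limma adjusted p = 0.00905) and Hnf4a (0.16 ± 0.06, limma adjusted p = 0.0302) were small. The Hnf4a call was lost without control replicate 1 (adjusted p = 0.103) or 2 (0.0988) and without Falcor hairpin replicate 2 (0.0585) or 3 (0.0890), and that of Gata6 without Falcor hairpin replicate 3 (0.0528). Without that replicate, 3 of the 7 genes were called. Cebpa (0.14 ± 0.06) and Gata4 (0.14 ± 0.06) missed the threshold, at limma adjusted p of 0.0681 and 0.0725, but both passed with median-of-ratios scaling (0.0272 and 0.0241) and with no rescaling (4.89e-04 and 0.00235). No rescaling also moved the median of all genes to 0.13 and the share of called genes that were higher from 44.5 to 67.2%.

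**Figure D2:**
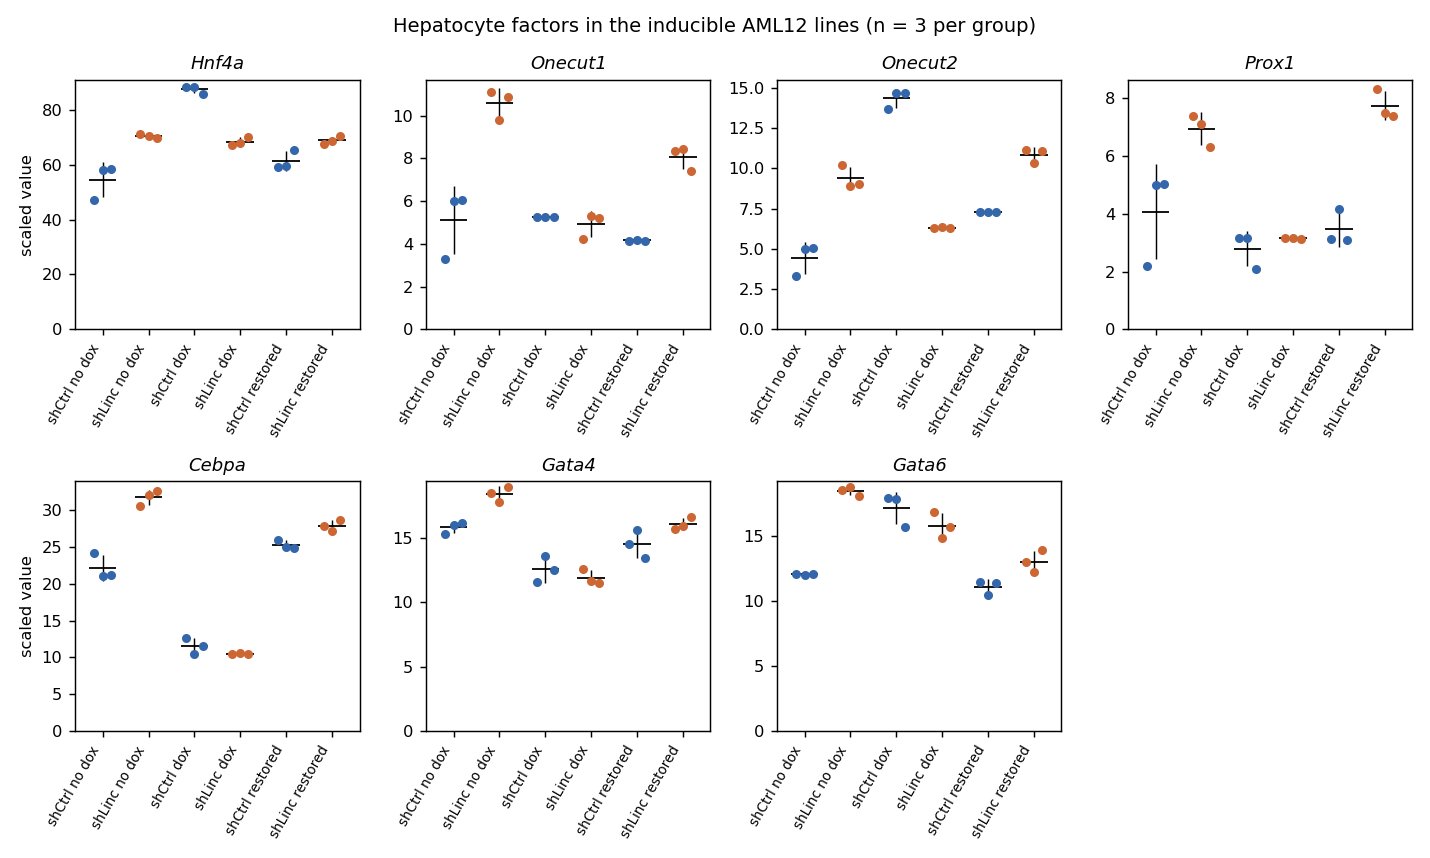
Scaled values of 7 factor genes in the inducible AML12 lines (Nr5a2, at 0 in nearly all libraries, is left out); points are libraries, horizontal bars means and vertical bars 1 SD (n = 3 per group). The orange Falcor hairpin libraries lie above the blue control libraries without doxycycline for every gene, and below them with doxycycline for Hnf4a and Onecut2.

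Because the lines differed before induction, the change of the hairpin difference was tested. Such a change includes any way in which the 2 lines respond unequally to the drug or to culture. Relative to the untreated state, the difference between hairpins was lower under doxycycline for 6 of 7 genes, against 64.9% of all genes called and 31% called lower. The value was −2.01 ± 0.14 for Onecut2 (limma adjusted p = 2.92e-09), −1.04 ± 0.20 for Onecut1, −0.72 ± 0.09 for Hnf4a, −0.68 ± 0.09 for Gata6, −0.62 ± 0.09 for Cebpa and −0.28 ± 0.09 for Gata4. Prox1 did not pass (−0.56 ± 0.27, limma adjusted p = 0.0790), although it passed without untreated control replicate 2 or 3 (0.0309 and 0.0289), without doxycycline control replicate 3 (0.0362) and with no rescaling (0.0343). Relative to the restored state, 6 of 7 were again lower, against 60.5% of all genes called and 28.8% called lower. Onecut2 was at −1.58 ± 0.14, Onecut1 at −0.90 ± 0.20, Prox1 at −0.83 ± 0.27, Hnf4a at −0.51 ± 0.09, Gata6 at −0.32 ± 0.09 and Cebpa at −0.25 ± 0.09. The Cebpa call was lost without doxycycline control replicate 1 (adjusted p = 0.0555). Gata4 missed the threshold (−0.21 ± 0.09, limma adjusted p = 0.0554) and passed with either other scaling, without restored control replicate 2 (0.0245), without doxycycline control replicate 1 (0.0192) and without doxycycline Falcor hairpin replicate 1 (0.0355). Both sets of values use the same doxycycline libraries.

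Between the restored and untreated states the hairpin difference was smaller in the restored state for Cebpa (−0.37 ± 0.09, limma adjusted p = 0.00621), Gata6 (−0.36 ± 0.09, adjusted p = 0.00922) and Onecut2 (−0.43 ± 0.14, adjusted p = 0.0442). These 3 of 7 compare with 19.8% of all genes called and 8.77% called lower. The Onecut2 call was lost without any 1 of the 9 libraries of the untreated Falcor hairpin group and both restored groups, at adjusted p of 0.0549 to 0.109. It was also lost with no rescaling (0.0660), median-of-ratios scaling (0.0513), no filter (0.0662) and the replicate number as a block (0.0556). Hnf4a (−0.20 ± 0.09, limma adjusted p = 0.114, but 0.0496 and 0.0416 without untreated control replicate 2 or 3), Onecut1 (−0.15 ± 0.20), Gata4 (−0.07 ± 0.09) and Prox1 (0.27 ± 0.27) did not pass. Without untreated control replicate 1, Prox1 passed with a positive value, 0.58 (limma adjusted p = 0.0220).

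Doxycycline in the control line showed what these genes do without a Falcor hairpin. The drug, hairpin induction and other differences between the cultures cannot be told apart. Onecut2 rose by 1.51 ± 0.10, Hnf4a by 0.68 ± 0.06 and Gata6 by 0.47 ± 0.06, while Cebpa fell from 22.1 ± 1.73 to 11.5 ± 1.06 (−0.88 ± 0.06) and Gata4 fell by 0.31 ± 0.06. The groups of these 5 genes did not overlap, though the share of all genes without overlap was not counted. The 5 calls compare with 66.5% of all genes called, 34% higher and 32.5% lower. Onecut1 (0.07 ± 0.14) and Prox1 (−0.37 ± 0.19) did not pass. Untreated control replicate 1 decided the Prox1 result, which without it was −0.68 (limma adjusted p = 2.18e-04), and it turned the sign of Onecut1, to −0.17 (adjusted p = 0.0960).

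In the Falcor hairpin line 6 of the 7 genes were lower with doxycycline than without it and none was higher. This compares with 74.2% of all genes called and 35.6% called lower. Drug, hairpin induction and other differences between the cultures cannot be told apart in this line either. Cebpa fell most, from 31.7 ± 1.04 to 10.5 ± 0.0625 (−1.51 ± 0.06, limma adjusted p = 4.75e-13), followed by Onecut1 (−0.97 ± 0.14), Prox1 (−0.93 ± 0.19), Gata4 (−0.59 ± 0.06), Onecut2 (−0.50 ± 0.10) and Gata6 (−0.21 ± 0.06). Hnf4a was at 70.4 ± 0.841 before and 68.4 ± 1.51 after (−0.04 ± 0.06, limma adjusted p = 0.552). With no rescaling its value was −0.25 (adjusted p = 0.00832), the median of all genes moved to −0.18, and the share of called genes that were higher from 52.0 to 35.9%. The interaction values with no rescaling moved likewise, with the median of all genes at −0.16 against untreated and −0.14 against restored, and the higher share at 36.0 and 36.7% in place of 52.3 and 52.4%. Cebpa and Gata4 were the factor genes called lower under doxycycline in both lines.

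Cebpa was higher in the restored state than with doxycycline in both lines. The difference was 1.07 ± 0.06 in the control line (limma adjusted p = 9.02e-11) and 1.33 ± 0.06 in the Falcor hairpin line (adjusted p = 3.86e-12). In the control line Onecut2 (−0.89 ± 0.10), Gata6 (−0.58 ± 0.06) and Hnf4a (−0.51 ± 0.06) fell and Gata4 rose slightly (0.20 ± 0.06), 5 calls against 73.7% of all genes, 39.6% higher and 34.2% lower. The Gata4 call was lost without restored control replicate 2 (adjusted p = 0.0707) or doxycycline control replicate 1 (0.0733). In the Falcor hairpin line Prox1 (1.07 ± 0.19), Onecut2 (0.69 ± 0.10), Onecut1 (0.62 ± 0.14) and Gata4 (0.41 ± 0.06) rose with Cebpa, and Gata6 fell (−0.26 ± 0.06, but adjusted p = 0.255 with no rescaling). These 6 calls compare with 72.2% of all genes, 34.2% higher and 38% lower, and no rescaling moved the median of all genes from −0.0309 to 0.14 and the higher share from 47.4 to 62.6%. Hnf4a was at 68.8 ± 1.40 in the restored Falcor hairpin line, a log2 fold change of 0.01 from its doxycycline level, which became 0.18 (limma adjusted p = 0.0467) with no rescaling.

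Set against the untreated state, the restored control line had 3 genes higher, Onecut2 (0.62 ± 0.10), Cebpa (0.19 ± 0.06) and Hnf4a (0.17 ± 0.06), against 49.9% of all genes called and 27.1% called higher. Only that of Onecut2 held with each library left out. The Hnf4a call was lost without untreated control replicate 1 (0.07, adjusted p = 0.146) or restored control replicate 3 (0.12, 0.141), and that of Cebpa without untreated control replicate 2 (0.0782) or 3 (0.0630) or restored control replicate 1 (0.0609). Without untreated control replicate 1, Onecut1 (−0.45, adjusted p = 3.86e-04) and Prox1 (−0.44, adjusted p = 0.00884) were called lower. The restored Falcor hairpin line had 4 genes lower than untreated, Gata6 (−0.47 ± 0.06, limma adjusted p = 1.01e-05), Onecut1 (−0.36 ± 0.14, adjusted p = 0.0458), Gata4 (−0.18 ± 0.06, adjusted p = 0.0239) and Cebpa (−0.18 ± 0.06, adjusted p = 0.0210), against 52.3% of all genes called and 23.8% called lower. Of these, that of Gata6 alone held with each library left out. Leaving out single libraries left 1 to 3 calls, 2 without untreated replicate 1 or 2 and 1 without untreated replicate 3 or restored replicate 1 or 2.

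**Figure D3:**
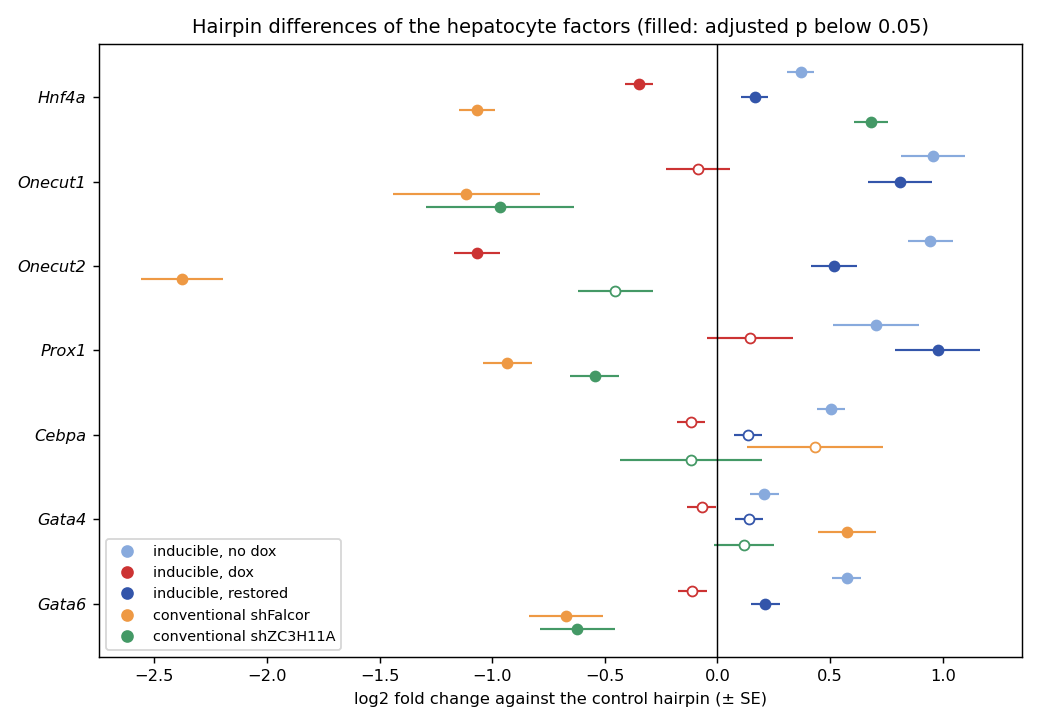
Log2 fold change of each factor gene against the control hairpin of its own table (± SE), in the 3 states of the inducible lines and under both conventional hairpins; filled points passed an adjusted p of 0.05. Hnf4a and Onecut2 lie left of 0 under shFalcor (−1.07 and −2.38) and under inducible knockdown with doxycycline (−0.35 and −1.07), and right of 0 without doxycycline and in the restored state.

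Across the 18 inducible libraries the factor genes fell into several patterns. Hnf4a followed Onecut2 most closely (Pearson r = 0.89 on log2 scaled values), Cebpa followed Gata4 (r = 0.88), and Onecut1 followed Prox1 (r = 0.86), whereas the paralogues Gata4 and Gata6 (r = −0.05) and Onecut1 and Onecut2 (r = 0.42) did not. Over 6703 genes the closest to Hnf4a were Ubr3 (r = 0.98), Fam91a1 and Aff4 (both 0.97). Those closest to Cebpa were Acaa2, Sema3f and Igfbp4 (each 0.99), those closest to Gata4 were Mknk2 (0.96), Slc44a3 and B4galt5 (both 0.95), and those closest to Gata6 were Mbip (0.96), Crnkl1 (0.94) and Rab10 (0.93). The points are 18 libraries in 6 groups that share lines, states and scaling, so these coefficients describe the groups more than independent samples.

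Of the 4 HNF4A targets tested in the inducible table, Ttr, Hpx and Apob were lower under doxycycline in the Falcor hairpin line (3 of 4, median −0.74). Over all genes 27% were called lower and 25.4% higher between the lines with doxycycline. Ttr was higher in the Falcor hairpin line without doxycycline (1.34 ± 0.04) and in the restored state (1.23 ± 0.04), and its change of difference under doxycycline was −2.02 ± 0.06. Among 12 tested cofactors and repressors, 8 had a lower and 2 a higher hairpin difference under doxycycline than untreated (median −0.71), where 31% of all genes were called lower and 33.9% higher. Those lower included the coactivator gene Ppargc1a (−1.42 ± 0.24), the corepressor gene Ncor1 (−1.45 ± 0.28) and the GATA cofactor gene Zfpm1 (−0.81 ± 0.10), and Trib1, whose product promotes degradation of CEBPA, was higher (1.02 ± 0.08). Of 22 other liver factor genes, 11 were higher and 6 lower without doxycycline, 6 higher and 7 lower with it, and 11 higher and 4 lower when restored. These totals, 17, 13 and 15 of 22, are read against 65.3, 52.4 and 57.9% of all genes called in the same comparisons.

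Proliferation markers moved with these states. Their summed value was 644 to 653 in untreated control and 391 to 392 in untreated Falcor hairpin libraries, 918 to 934 and 934 to 952 with doxycycline, and 657 to 669 and 483 to 500 when restored. In the untreated Falcor hairpin line 5 of 7 markers were lower, where 35.1% of all genes were called lower and 30.2% higher. Fold changes also followed transcript length, with a Spearman correlation across 9582 genes of 0.38 without doxycycline, −0.14 with it, 0.28 when restored and −0.34 for the change of difference, against 0.00593 across 11410 genes for conventional shFalcor. The longest transcripts here are those of Onecut2 and Prox1. The part of proliferation or transcript length in the differences of the factor genes was not tested.

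In liver the comparison of knockout and control asked whether loss of Falcor changes these genes in the tissue. None of them was called on either diet. On NCD 0 of 7 tested genes passed in limma, against 5.98% of all 9536 genes, 4.16% higher and 1.81% lower (2 of the 7, Gata4 and Nr5a2, had an unadjusted p below 0.05). On HFD 0 of 6 passed in limma, against 0.0486% of all 6176 genes, 0.0324% higher and 0.0162% lower (2 of the 6, Nr5a2 and Prox1, had an unadjusted p below 0.05). In whole liver, fewer cells of a type and less RNA per cell cannot be told apart. Of the markers of other liver cell types tested, none was called on either diet, and the summed macrophage markers ranged from 161 to 317 in NCD controls and from 106 to 170 in NCD knockouts.

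Hnf4a was again the highest of the 8 genes. On NCD its values were 232, 275, 258 and 238 in controls and 244, 265, 296 and 217 in knockouts, or 268 ± 14.5 against 239 ± 29.9 after scaling. The groups overlapped (−0.17 ± 0.10, limma adjusted p = 0.300), and the sign turned with no rescaling (0.0210). On HFD its values were 91, 85, 137, 99 and 102 in controls, and in knockouts they ran from 37 in replicate 6 through a median of 142.5 to 149 (scaled, 99.1 ± 13.2 against 117 ± 18.5, 0.23 ± 0.13, limma adjusted p = 0.510). Without HFD knockout replicate 6 the value was 0.32 (adjusted p = 0.270), and still 0 of the 6 tested factor genes were called on HFD, with Nr5a2 at 0.38 (adjusted p = 0.167), Prox1 at 0.58 (0.253) and Onecut1 at 0.0349 (0.987).

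Nr5a2, nearly silent in AML12, was well expressed in liver. On NCD it was 27, 30, 31 and 33 in controls and 38, 33, 46 and 45 in knockouts (scaled, 32.3 ± 1.86 against 37.7 ± 3.72, 0.21 ± 0.09, limma adjusted p = 0.150). On HFD the scaled values were 13.0 ± 0.814 in 5 controls and 16.7 ± 1.99 in 6 knockouts (0.33 ± 0.09, limma adjusted p = 0.177). The means were thus higher in knockouts on both diets, the groups overlapped on both, and neither difference held after adjustment. Of 9 tested NR5A2 targets on NCD, the sterol transporter genes Abcg5 (0.81 ± 0.17, limma adjusted p = 0.0391) and Abcg8 (0.70 ± 0.15, adjusted p = 0.0421) were higher and Cyp8b1, the sterol hydroxylase gene that sets the composition of bile acids, was lower (−0.98 ± 0.21, adjusted p = 0.0415). Over all genes on NCD 4.16% were called higher and 1.81% lower. None of the 9 was called on HFD.

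Onecut1 varied most between livers. It was 15, 50, 37 and 28 in NCD controls and 39, 35, 18 and 23 in NCD knockouts (−0.30 ± 0.39, limma adjusted p = 0.633). In HFD controls it was 14, 9, 3, 9 and 28, and in HFD knockouts it ranged from 1 to 23 (−0.26 ± 0.70, limma adjusted p = 0.908). The range within each group exceeded any difference between the groups. Onecut2, at 11.2 ± 1.42 against 12.2 ± 0.762 on NCD and 6.30 ± 0.497 against 5.93 ± 1.25 on HFD, was low and steady (0.12 ± 0.10 and −0.09 ± 0.12).

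Prox1 was 44, 32, 37 and 34 in NCD controls and 40, 45, 59 and 50 in knockouts (0.20 ± 0.13, limma adjusted p = 0.352). On HFD its scaled values were 15.9 ± 3.08 in controls and 23.2 ± 6.46 in knockouts (0.49 ± 0.19, limma adjusted p = 0.320), with overlap. Cebpa was 116, 135, 118 and 86 in NCD controls and 112, 111, 113 and 84 in knockouts (−0.30 ± 0.17, limma adjusted p = 0.265), and on HFD 36.2 ± 4.77 against 32.4 ± 8.34 (−0.18 ± 0.16). Gata4 was low in liver, at 9.60 ± 0.497 in NCD controls and 7.45 ± 1.04 in NCD knockouts. It is the tested factor gene whose scaled groups did not overlap on NCD (6.87 to 9.01 against 9.10 to 10.3), and it missed the threshold (−0.33 ± 0.10, limma adjusted p = 0.0719). How many of all genes had no overlap on NCD was not counted. Gata4 on HFD and Gata6 on both diets were below the filter, with group means of 1.11 to 2.71.

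**Figure D4:**
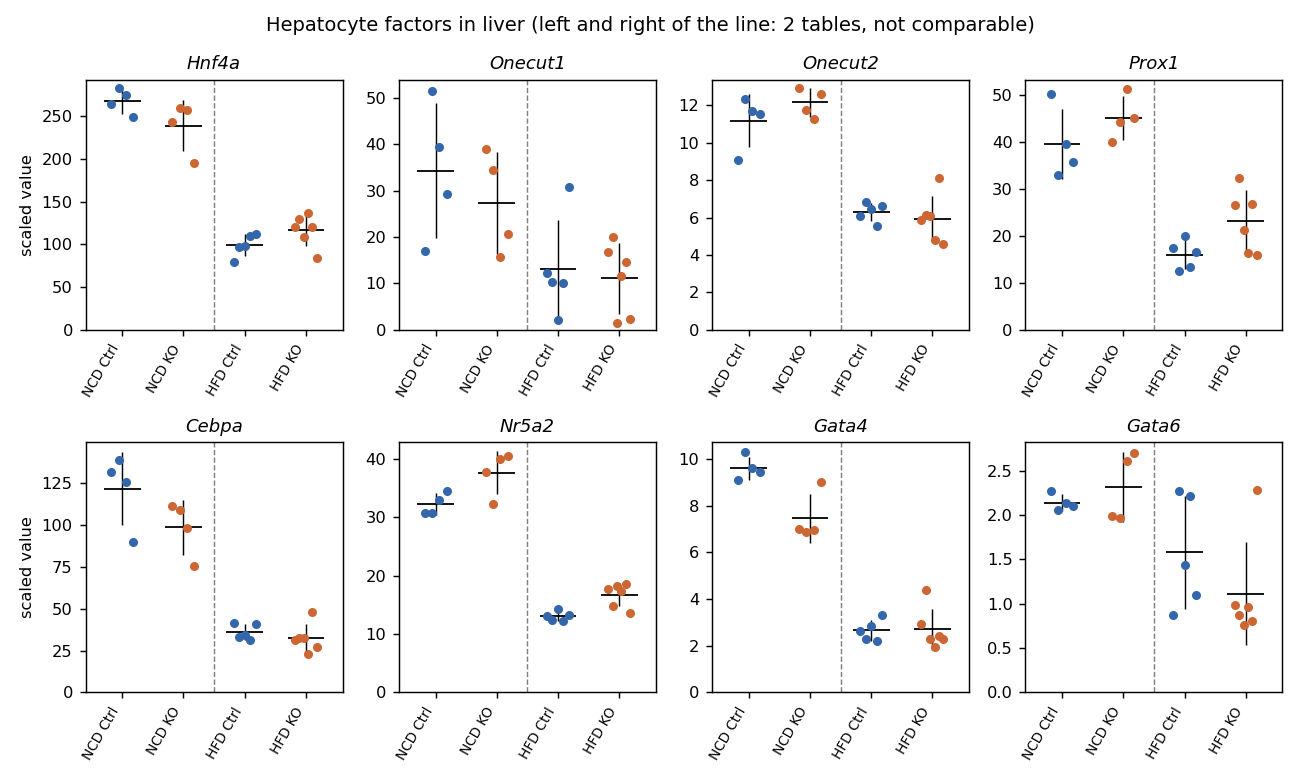
Scaled values of the 8 factor genes in control and Falcor knockout livers; points are libraries, horizontal bars means and vertical bars 1 SD (NCD 4 and 4, HFD 5 and 6 libraries). The diets come from separately normalized tables and are divided by a dashed line; control and knockout overlap for every gene apart from Gata4 on NCD.

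Among other liver factor genes on NCD, 2 of 28 were called, both higher, Ppara (0.64 ± 0.09) and the clock output gene Dbp (1.07 ± 0.23), a share near the 5.98% of all genes called. Of 20 tested HNF4A targets, Apoa2 (0.68 ± 0.15) and Apob (0.51 ± 0.12) were higher and Cyp8b1 lower, with a list median of 0.14 against 0.04 over all genes. No rescaling moved the median of all genes on NCD to 0.21 and the share of called genes that were higher from 69.6 to 94.9%. The count of called genes on NCD, 570, fell to between 6 and 32 without any 1 of 7 libraries and rose to 1707 without control replicate 4, so the list calls on NCD rest on the full set.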

How the data were processed

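Per the labels' protocols, ribosomal RNA was removed and the libraries keep strand. Kallisto, DESeq2 and mm10 are named by the submitters' processing notes, with neither version nor role, and the sources used here give no annotation release. The conventional hairpin table holds deposited counts per gene. The other 3 tables hold deposited values treated as a score, rounded by the authors to whole numbers, which look length-scaled although no source says so. A count model was used for the conventional hairpin table, and limma where counts were lacking.

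Counts were tested with edgeR 4.0.16 (filterByExpr, TMM scaling, quasi-likelihood test, robust) and are printed as CPM. Scores were divided by TMM factors, and log2(value + 1) of genes with a mean of at least 3 was fitted with limma 3.58.1 (trend, robust) in R 4.3.3. Fold changes on that scale understate low genes. Each table had 1 fit over all its groups, adjustment followed Benjamini and Hochberg over every gene tested, and genes at adjusted p below 0.05 were called. Nothing was tested across tables. DESeq2 1.42.0, other scalings, a pseudocount of 0.5, no filter, the replicate block and each library left out were the alternatives. On simulated data with 200 changed genes, 96.0% of 2-fold changes were recovered in the inducible comparison under doxycycline, 70.0% for conventional shFalcor, 80.0% on NCD and 82.0% on HFD, and of 1.5-fold changes 89.0, 47.0, 37.0 and 61.0% in the same order. For scores, changes were planted only in genes above a cut-off higher than the filter. Recovery of lower genes, such as Prox1 in the inducible lines, is thus not covered. Far fewer genes were changed than were called between the cell lines.

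The 8 genes and the gene lists were chosen with earlier results of these data known. The 8 genes were named in each comparison, and of each list up to 4 called genes with the smallest p, or those needed to read a small count. Likeness was taken over genes with a mean of at least 10. Liver control columns with a bare name carry a group and no number.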

Additional observations from a re-analysis of the deposited data

Results flagged for a closer look

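For 32 sets of libraries (1 of the 8 genes in 1 liver group) the gap of the highest or lowest library to the next was set against the range of the group, and 2 stood out, where chance gives about 1 in 20. Gata4 was at 9.01 in 1 NCD knockout, above 6.87 to 6.98 in the other 3. Gata6 was at 2.28 in HFD knockout replicate 6 and at 0.76 to 0.98 in the other 5. Its deposited value was 1 in all 6 of these livers, so the gap comes from the scaling factor of that library, 0.438.

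Hairpin differences that changed between states of the inducible lines, by limma's interaction terms, were those given above. Against the untreated state, the difference under doxycycline changed by −0.72 for Hnf4a, −1.04 for Onecut1, −2.01 for Onecut2, −0.62 for Cebpa, −0.28 for Gata4 and −0.68 for Gata6. Against the restored state it changed by −0.51 for Hnf4a, −0.90 for Onecut1, −1.58 for Onecut2, −0.83 for Prox1, −0.25 for Cebpa and −0.32 for Gata6. Between the restored and untreated states it changed by −0.43 for Onecut2, −0.37 for Cebpa and −0.36 for Gata6.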

How the results depend on the processing

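Of 575 values of single factor genes under other scalings, filters, pseudocounts, tools or the block, 550 kept their direction and side of the threshold, 12 passed newly, 10 were lost and 3 changed sign, and of 878 with 1 library left out these counts were 805, 18, 40 and 15. With no rescaling the sign changed for Gata6 (0.11) and Onecut1 (0.0137) in shFalcor against shZC3H11A and for Hnf4a (0.0210) on NCD. With 1 library left out, signs changed within these ranges of log2 fold change: Cebpa −0.41 to 0.22 under shZC3H11A; Gata6 −0.16 to 0.15 and Onecut1 −0.42 to 0.24 for shFalcor against shZC3H11A; Hnf4a −0.00756 to 0.0260 for restored against doxycycline in the Falcor hairpin line; Onecut1 −0.71 to 0.12 on HFD, −0.27 to 0.0913 for the restored change of difference, −0.17 to 0.19 for doxycycline in the control line and −0.13 to 0.00412 between hairpins under doxycycline; and Prox1 −0.44 to 0.0193 for the restored against the untreated control line. Called factor genes ranged from 1 to 3 (4 with all libraries) for the restored against the untreated Falcor hairpin line and from 3 to 5 (5) between hairpins when restored. All genes called ranged from 6 to 1707 on NCD (570) and from 1 to 8 on HFD (3). They numbered 1746 on NCD and 29 on HFD with no rescaling, and on HFD 1 with median-of-ratios scaling, 12 with no filter and 18 with the largest rows removed. The cause was not tested. Replicate numbers did not pair the libraries, and in 2 of 12 comparisons each library correlated best with its own number. With the number as a block, 2 calls of factor genes changed, Onecut2 for the restored change of difference (adjusted p = 0.0556) and under shZC3H11A (0.0294), and NCD gave 8 called genes over its numbered libraries. Depth is unknown for the 3 rounded tables.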
